A study of Homo sapiens with 6 samples.

Results

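Expression of 10 Notch genes was compared between WT and LSD1 KO HCT116 cells: the receptors NOTCH1, NOTCH2 and NOTCH3, the ligands JAG1, JAG2, DLL1 and DLL4, and the target genes HES1, HES4 and HEY1. The genes were chosen by symbol, and they are 10 of the 60240 genes of the count table, all 10 of which passed the filter on low counts. None of the 10 passed the test for a difference between LSD1 KO and WT cells in the reported edgeR fits, either without a replicate block or with one. With the block, the gene nearest to the threshold (q value under 0.1) was HES4, a transcriptional repressor of the HES family, with a q value of 0.104. Of the 10 fits with the block, alternatives included, 8 called HES4, and no fit without the block did. These fits draw on the same 6 libraries, and some of the alternatives were chosen after the data were seen. The reported fit with the block called 1.60% of all genes tested, and DESeq2 with the block called 4.21%. The mean level of HES4 was 143.4 ± 83.6 CPM (counts scaled to library size) in WT and 90.8 ± 33.8 CPM in LSD1 KO cells, each with the SD of 3 libraries. It was lower in LSD1 KO cells in each of the 3 pairs of same-numbered libraries. HES1, the related target gene, had a mean level of 16.1 ± 7.86 CPM in WT and 17.8 ± 6.66 CPM in LSD1 KO cells.

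Notch signalling passes between touching cells. A ligand of the Jagged (JAG) or Delta-like (DLL) family on one cell binds a NOTCH receptor on its neighbour, which is then cut by ADAM proteases and by γ-secretase. The freed intracellular domain enters the nucleus, joins the DNA-binding protein RBPJ and Mastermind-like coactivators, and turns on genes of the HES and HEY families, whose products are repressors. In the intestine the pathway is known for keeping progenitor cells dividing and for directing cells towards the absorptive rather than the secretory fate, in part through repression of ATOH1 by HES1. Without the receptor domain, RBPJ sits with corepressors on the same genes, and LSD1, a demethylase of histone H3 lysine 4, has been described in such complexes.

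RNA-seq was performed on polyadenylated RNA from the HCT116 line of human colorectal carcinoma, with 3 wild-type libraries (WT) and 3 libraries from cells whose LSD1 gene had been cut by CRISPR/Cas9 in exon 1 (LSD1 KO). The cells had no other treatment named in the labels and grew in McCoy's 5A medium with serum. LSD1 KO cells went through transient transfection, puromycin selection and expansion as individual clones, and the sources used here do not say whether the 3 libraries come from 1 clone or from separate cultures. The p-values therefore measure the spread between these libraries, which may be technical. Total counts ran from 25379279 to 29186963 per library, and the floor of 3 counts was 0.0994 to 0.114 CPM, depending on the library, which covers counting error only.

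KDM1A, which encodes LSD1, fell to 12.7% of its WT mean, from 223.1 ± 8.78 CPM to 28.4 ± 1.30 CPM (SD, n = 3 each), and was the 1 gene with a q value under 0.1 in edgeR without a block. The libraries numbered 2 stood apart from the others in both groups. Of the 17672 genes tested, 25.1% were highest and 26.0% were lowest in replicate 2 of both groups, and a second model therefore held the replicate number as a block. Of 9 colon epithelium markers, 7 were tested and their summed level was between 2044 and 3820 CPM in WT and between 2421 and 3160 CPM in LSD1 KO libraries, although CDX1 had 0 counts and VIL1 at most 8 counts in every library. Of the 7 tested, 5 had a log2 fold change below 0 without the block and 2 had one above 0. EPCAM was lower with the block (q value 0.0788 from edgeR, 0.162 from DESeq2 with the block). CDH1 and KRT18 were lower in all 3 numbered pairs (q values 0.196 and 0.230 from edgeR with the block). KRT19 was higher in all 3 numbered pairs (q value 0.123 from edgeR with the block, 0.00373 from DESeq2 with the block). Fibroblast markers summed to between 21.5 and 24.8 CPM in WT and between 31.7 and 35.5 CPM in LSD1 KO libraries, most of it COL1A1, which was higher with the block (q value 0.0628 from edgeR), while LUM and PDGFRA had 0 counts throughout. Leukocyte markers summed to between 17.3 and 20.9 CPM in WT and between 23.6 and 34.4 CPM in LSD1 KO libraries, most of it CD68. LYZ had 20 to 48 counts a library, and CD3E had 0 counts. Endothelial markers, which matter here because DLL4 is an endothelial ligand, summed to between 0.871 and 1.89 CPM in WT and between 1.44 and 3.22 CPM in LSD1 KO libraries. VWF (8 to 33 counts a library) and TIE1 (6 to 23) were tested and not called. KDR, too low to be tested, had 4, 6 and 6 counts in WT and 8, 11 and 18 in LSD1 KO libraries. CDH5 had 0 counts in 5 of the 6 libraries, and PECAM1 was not matched to a gene of the counts. The part of these markers in the values below was not tested. In bulk samples, fewer cells that express a gene and less RNA per cell cannot be told apart.

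Whether loss of LSD1 changed the Notch genes was asked with edgeR's quasi-likelihood test on all 17672 genes, with a gene called at a q value under 0.1. Without the block 0 of the 10 Notch genes were called, where 0.00566% of all genes tested were, and 0 had an unadjusted p under 0.05, where 3.12% of all genes had. With the block 0 were again called, where 1.60% of all genes were, and JAG1, JAG2 and HES4 had an unadjusted p under 0.05, where 13.4% of all genes had. DESeq2's Wald test called 0 of the 10 and 0.376% of all genes, and DESeq2 with the replicate block called HES4 and 4.21% of all genes. The log2 fold change was above 0 for 7 of the 10 and below 0 for 3, JAG2, DLL1 and HES4, with a median of 0.10 over the 10 and of 0.00 over all genes tested. The LSD1 KO values lay wholly outside the WT values for JAG2 alone, 1 of 10, as for 7.74% of all genes tested. A difference of the same direction in all 3 numbered pairs was seen in 5 of the 10, higher for NOTCH3, JAG1 and HES1 and lower for JAG2 and HES4, and in 36.3% of all genes tested.

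**Figure D1:**
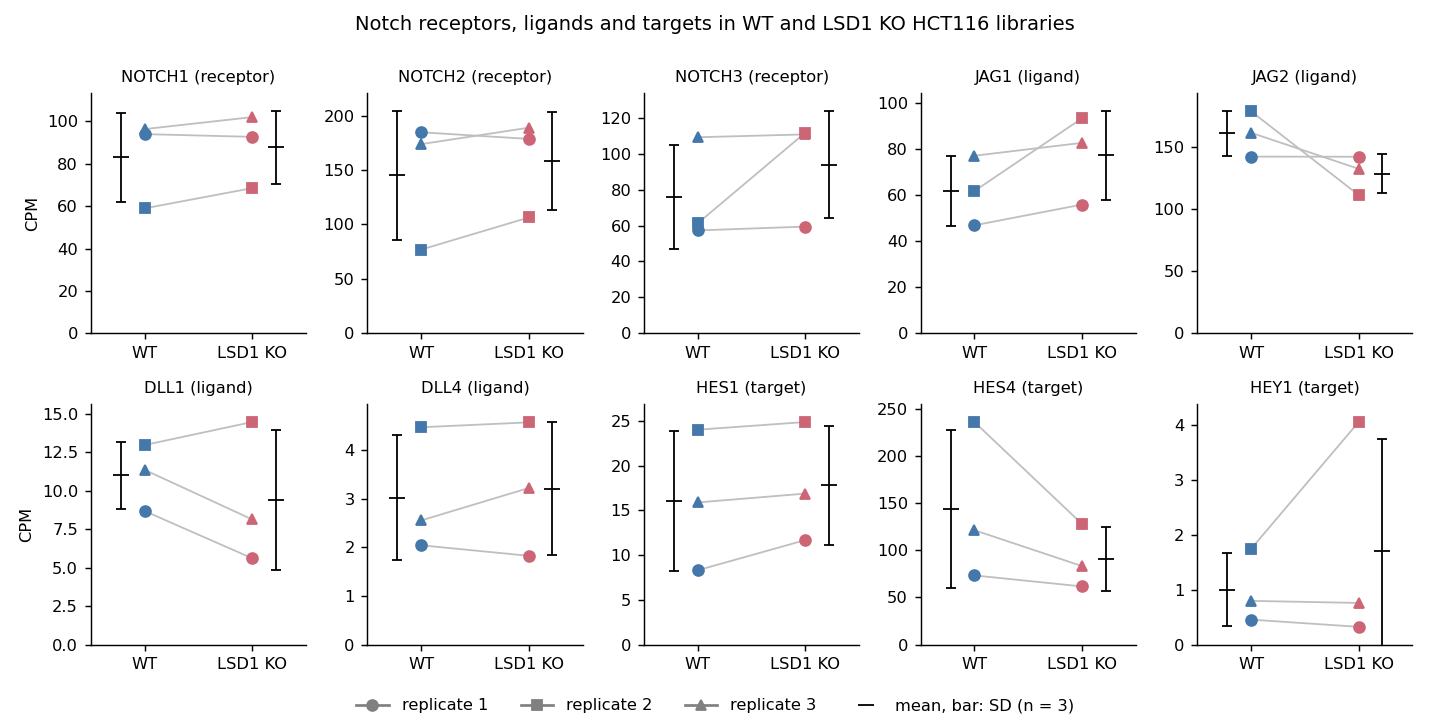
CPM of each Notch gene (vertical axes, each from 0) in the 3 WT and 3 LSD1 KO libraries. Points are libraries, grey lines join libraries of the same number, and black bars give the mean and SD of each group (the bar of HEY1 in LSD1 KO runs below 0 and is cut at the axis). HES4 is lower in LSD1 KO along all 3 lines, while the squares of replicate 2 are the highest points for DLL1, DLL4, HES1, HES4 and HEY1 and the lowest for NOTCH1 and NOTCH2 in both groups.

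Among the ligands, the Jagged genes had log2 fold changes of opposite sign, neither of them called. JAG2 (ENSG00000184916, chromosome 14 from 105140995 to 105168776, GRCh38, minus strand) had 142.1, 178.6 and 161.3 CPM in the WT libraries and 142.0, 111.2 and 132.3 CPM in the LSD1 KO libraries. All LSD1 KO values were below all WT values, but in the libraries numbered 1 by less than 0.1 CPM, so the separation rests on the other numbers. Its log2 fold change was -0.32 (standard error, SE, 0.17, 95% interval -0.71 to 0.07, q value 0.9995 from edgeR) without the block and -0.32 (SE 0.13, 95% interval -0.62 to -0.03, q value 0.326) with it. The exact permutation test over the libraries gave p = 0.1 for JAG2, two-sided, which is the smallest p that 3 libraries against 3 allow. JAG1 (ENSG00000101384, chromosome 20 from 10637684 to 10673999, GRCh38, minus strand) had 46.9, 61.7 and 77.1 CPM in WT and 55.9, 93.4 and 82.7 CPM in LSD1 KO libraries. The groups overlapped, and each LSD1 KO library was above the WT library of its number. The log2 fold change of JAG1 was 0.32 (SE 0.25, edgeR q value 0.9995) without the block and 0.32 (SE 0.11, 95% interval 0.06 to 0.57, q value 0.275) with it. Within a library JAG2 was 3.03, 2.89 and 2.09 times JAG1 in WT and 2.54, 1.19 and 1.60 times JAG1 in LSD1 KO cells, and these ratios overlapped between the groups.

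The Delta-like ligands were at lower levels. DLL1 (ENSG00000198719, chromosome 6 from 170282206 to 170291078, GRCh38, minus strand) had 8.69, 12.98 and 11.4 CPM in WT and 5.61, 14.5 and 8.14 CPM in LSD1 KO libraries. It was lower in LSD1 KO cells for the libraries numbered 1 and 3 and higher for those numbered 2, with log2 differences of -0.63, -0.48 and 0.16. Its log2 fold change was -0.23 (SE 0.35, edgeR q value 0.9995) without the block and -0.31 (SE 0.18, q value 0.525) with it. With the block and pair 2 left out it was -0.57 (edgeR q value 0.0699), in a fit that called 5.85% of all genes. DLL1 overlaps FAM120B on the opposite strand, and the sources used here do not state the strand setting of the counting. DLL4 (ENSG00000128917, chromosome 15 from 40929340 to 40939073, GRCh38, plus strand) had 2.04, 4.47 and 2.55 CPM in WT and 1.82, 4.57 and 3.22 CPM in LSD1 KO libraries, which rest on 51 to 124 counts a library. The groups overlapped over their whole range, and its log2 fold change was 0.09 (SE 0.43, edgeR q value 0.9995).

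The receptors differed little between the groups beside their spread. NOTCH1 (ENSG00000148400, chromosome 9 from 136494433 to 136546048, GRCh38, minus strand) had 94.0, 58.9 and 96.4 CPM in WT and 92.7, 68.5 and 102.0 CPM in LSD1 KO libraries. Replicate 2 was the lowest library of both groups. For NOTCH1 the log2 fold change was 0.08 (SE 0.24, 95% interval -0.46 to 0.62, q value 0.9995 from edgeR) without the block and 0.09 (SE 0.09, 95% interval -0.12 to 0.30, q value 0.714) with it, an interval that runs from 0.923 to 1.23 times the WT level. NOTCH2 (ENSG00000134250, chromosome 1 from 119911553 to 120069662, GRCh38, minus strand) had 184.7, 76.9 and 173.8 CPM in WT and 178.6, 106.4 and 188.9 CPM in LSD1 KO libraries. Its lowest library was again replicate 2 in both groups, and its log2 fold change was 0.12 (SE 0.35, edgeR q value 0.9995) without the block and 0.18 (SE 0.11, q value 0.545) with it. NOTCH3 (ENSG00000074181, chromosome 19 from 15159038 to 15200995, GRCh38, minus strand) had 57.3, 61.3 and 109.2 CPM in WT and 59.4, 111.8 and 110.8 CPM in LSD1 KO libraries. Nearly all of its difference lay between the libraries numbered 2, with a log2 difference of 0.87 against 0.05 and 0.02 for the libraries numbered 1 and 3. Its log2 fold change was 0.31 (SE 0.32, edgeR q value 0.9995) without the block and 0.31 (SE 0.16, q value 0.456) with it.

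NOTCH2 counts may include reads of its partial copies. Of the 31-base sequences of NOTCH2 transcripts in GENCODE v44lift37, 9.56% also occur in another gene. NOTCH2NLA, NOTCH2NLB, NOTCH2NLC and NOTCH2NLR, the NOTCH2-like genes of human chromosome 1, held 9.16%, 7.17%, 8.52% and 6.53% of the NOTCH2 sequences. In that annotation these genes overlap at the same locus, whereas counting used GRCh38. The shares for the transcripts that were counted may therefore differ. The 4 copies together had between 22.5 and 30.3 CPM in WT and between 30.7 and 32.0 CPM in LSD1 KO libraries. All 4 had a log2 fold change above 0, from 0.24 for NOTCH2NLC to 0.66 for NOTCH2NLR (SE 0.38, edgeR q value 0.9995), and 0 were called with or without the block. How Salmon divided reads between these genes was not tested. For JAG2 the shared part was 6.85%, with a lncRNA that had 12 counts over the 6 libraries, and for NOTCH3 it was 1.48%.

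**Figure D2:**
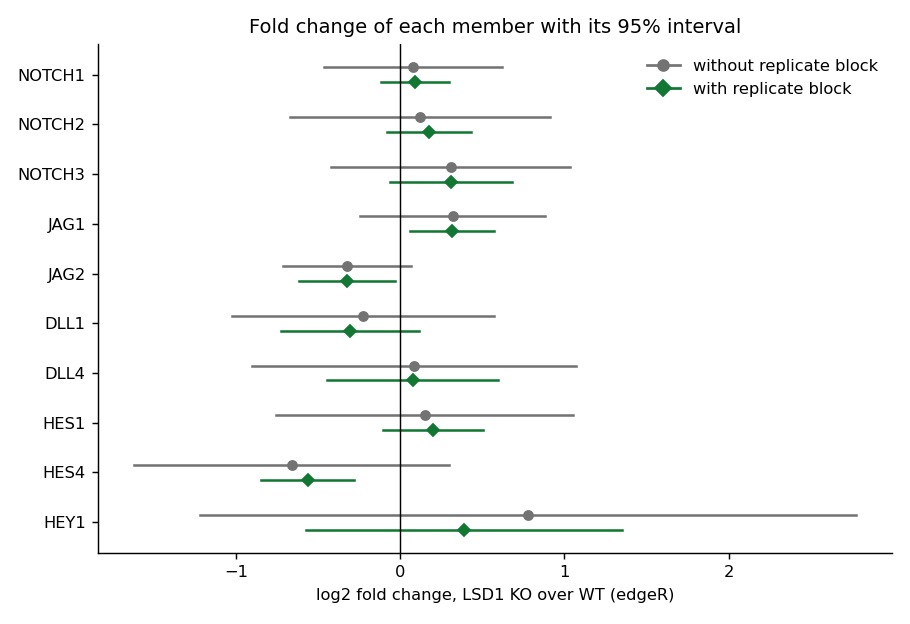
Log2 fold change of LSD1 KO over WT (horizontal axis) for each Notch gene, from edgeR without the replicate block (grey circles) and with it (green diamonds), with 95% intervals as lines. All 10 grey intervals cross 0. With the block, the intervals of JAG1, JAG2 and HES4 lie to 1 side of 0, and that of HES4 runs from -0.85 to -0.28.

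Of the 3 target genes, HES4 was the lowest relative to WT. HES4 (ENSG00000188290, chromosome 1 from 998964 to 1000097, GRCh38, minus strand) had 73.3, 235.9 and 121.2 CPM in WT and 61.6, 127.8 and 83.1 CPM in LSD1 KO libraries. Replicate 2 was the highest library of both groups, and the groups overlapped, with LSD1 KO replicate 2 above WT replicates 1 and 3 and LSD1 KO replicate 3 above WT replicate 1. Between libraries of the same number the log2 difference of HES4 was -0.25, -0.88 and -0.54 for numbers 1, 2 and 3. The log2 fold change of HES4 was -0.66 (SE 0.42, 95% interval -1.62 to 0.30, q value 0.9995 from edgeR) without the block. It was -0.56 (SE 0.12, 95% interval -0.85 to -0.28, unadjusted p = 0.00173 and q value 0.104, both from edgeR) with the block, 0.677 times the WT level, just outside the threshold. The q value of HES4 was 0.00141 with DESeq2 and the block. With the block it was 0.0253 without pair 1, 0.0300 without pair 2 and 0.208 without pair 3, in fits that called 2.40%, 5.85% and 1.12% of all genes. Without WT replicate 2 and without the block, its log2 fold change was -0.10.

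HES1 (ENSG00000114315, chromosome 3 from 194136148 to 194138732, GRCh38, plus strand), the best known Notch target of the intestine, had 8.31, 24.0 and 15.9 CPM in WT and 11.7, 24.9 and 16.9 CPM in LSD1 KO libraries. Each LSD1 KO library was above the WT library of its number, by 0.49, 0.05 and 0.09 on the log2 scale for numbers 1, 2 and 3, and replicate 2 was the highest of both groups, as for HES4. The log2 fold change of HES1 was 0.15 (SE 0.40, edgeR q value 0.9995) without the block and 0.20 (SE 0.13, 95% interval -0.10 to 0.50, q value 0.564) with it. HEY1 (ENSG00000164683, chromosome 8 from 79764010 to 79767767, GRCh38, minus strand), a repressor of the related HEY family, rested on 12, 46 and 24 counts in the WT libraries and on 9, 110 and 20 in the LSD1 KO libraries. These counts corresponded to 0.453, 1.74 and 0.795 CPM and to 0.322, 4.05 and 0.757 CPM. LSD1 KO replicate 2 alone lay above the WT range, and the log2 fold change of 0.78 (SE 0.88, edgeR q value 0.9995) became -0.24 when replicate 2 of both groups was left out.

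HES4 and HES1 were both highest in replicate 2 and lowest in replicate 1 of each genotype, and the ratio between them was examined after their values had been seen. HES4 was 8.81, 9.81 and 7.62 times HES1 in the WT libraries and 5.27, 5.13 and 4.92 times HES1 in the LSD1 KO libraries. The mean ratio was 8.75 ± 1.10 in WT and 5.11 ± 0.172 in LSD1 KO cells (SD, n = 3 each), and the groups did not overlap. A two-sided exact permutation test gave p = 0.1. Any ratio whose groups do not overlap gives this p with 3 libraries against 3, so the test adds nothing here. Among the 45 pairs that the 10 genes form, the ratio did not overlap between the groups for 3, and HES4 was in each of them, with HES1, JAG1 and DLL4. Of the ratios of the other 17671 genes tested to HES1, 2.47% did not overlap between the groups. That share is for ratios to HES1 only, and no share over pairs of all genes is given beside the 3 of 45.

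**Figure D3:**
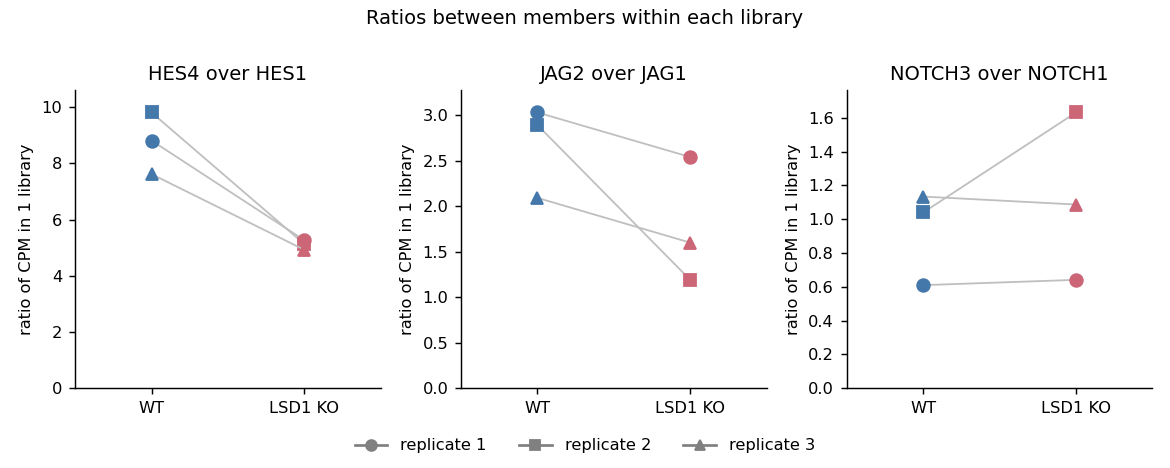
Ratio of the CPM of 2 Notch genes within each library (vertical axes from 0) for HES4 over HES1, JAG2 over JAG1 and NOTCH3 over NOTCH1. Points are libraries and grey lines join libraries of the same number. HES4 over HES1 lies between 7.62 and 9.81 in WT and between 4.92 and 5.27 in LSD1 KO libraries, whereas the other ratios overlap between the groups.

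The promoters of HES1 and HES4 are shown because both hold the core of an RBPJ site. The sequences are those of the 150 bases before the start of each gene (RefSeq, GRCh38.p14), read 5′ to 3′ on the strand of the gene, chr3:194135998-194136147 on the plus strand for HES1 and chr1:1000098-1000247 on the minus strand for HES4. Capitals mark the RBPJ core TGGGAA.
HES1: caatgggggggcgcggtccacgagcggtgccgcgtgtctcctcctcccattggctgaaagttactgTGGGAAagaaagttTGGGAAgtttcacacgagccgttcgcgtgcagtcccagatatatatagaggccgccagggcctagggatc
HES4: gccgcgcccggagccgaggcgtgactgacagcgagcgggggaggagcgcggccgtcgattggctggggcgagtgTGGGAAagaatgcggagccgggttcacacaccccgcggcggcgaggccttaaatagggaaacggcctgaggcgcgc
HES1 held the core at positions -84 and -70, counted back from the start of the gene at the first letter of the core, and HES4 held it at -76. The longest stretch that the windows share was tgtgggaaagaa, of 12 bases, from -86 in HES1 and from -78 in HES4, which includes the first core of HES1 and the 7-base form GTGGGAA. Searched on both strands of windows of 300 bases, from 250 before to 50 after the start, TGGGAA occurred in 24.0% and GTGGGAA in 6.25% of the 35116 promoters of the table. The GTGGGAA matches are part of the TGGGAA matches. Of the 8 Notch genes here with a promoter in the table, HES1 and HES4 held TGGGAA, and NOTCH1, NOTCH2, NOTCH3, JAG1, JAG2 and DLL4 did not. Among the other HES and HEY genes and NRARP, a further Notch target, HES3, HES5, HEY2 and HEYL held it. HES2, HES6, HES7 and NRARP did not. The N-box CACNAG, which HES repressors bind, occurred in 38.0% of promoters, 4 times in the window of HES1 and 0 times in that of HES4. A match of letters is a description and does not show binding in these cells.

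Levels were set against each other per length, as mean CPM per kb of the canonical transcript (GENCODE v44lift37). In WT cells HES4 had the highest level per kb, 162.1 ± 94.4 CPM per kb, and JAG2 followed with 27.8 ± 3.16 CPM per kb (SD, n = 3). NOTCH2 (12.7 ± 5.19), JAG1 (10.4 ± 2.54), HES1 (10.2 ± 4.99), NOTCH3 (8.75 ± 3.33) and NOTCH1 (8.68 ± 2.19 CPM per kb) came next, and neighbours in this order overlapped between libraries. DLL1 (2.91 ± 0.574 CPM per kb) lay below all of these in every WT library, and DLL4 (0.881 ± 0.373) and HEY1 (0.454 ± 0.304 CPM per kb) overlapped at the lower end. The order was the same in LSD1 KO cells, from 102.6 ± 38.1 CPM per kb for HES4 to 0.779 ± 0.928 CPM per kb for HEY1, with the same neighbours apart and overlapping. In both genotypes the Jagged ligands were therefore above the Delta-like ligands per kb, and the 3 receptors lay close together.

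**Figure D4:**
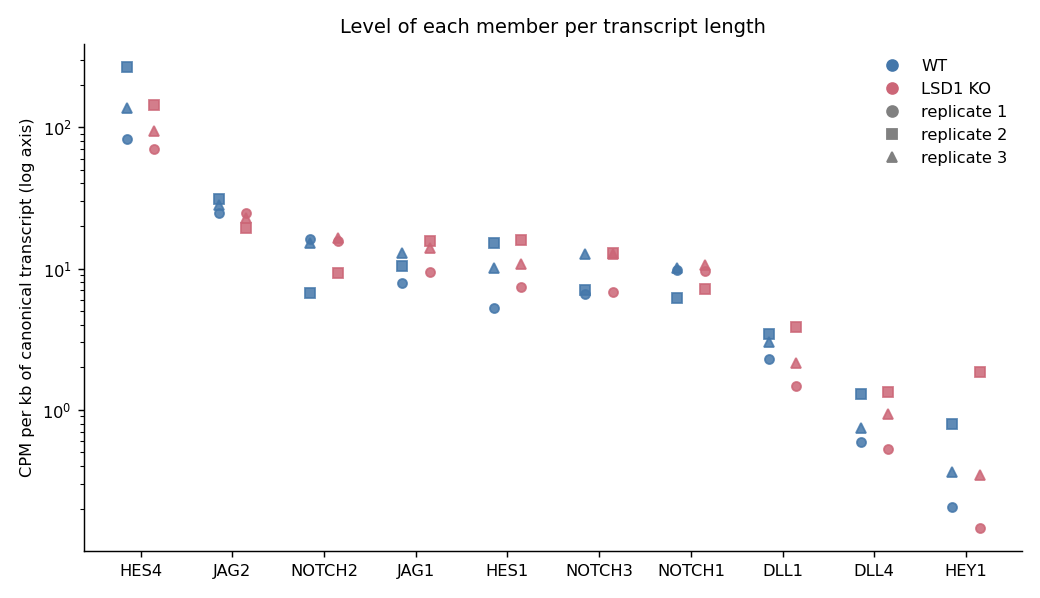
Level of each Notch gene in CPM per kb of canonical transcript (log axis), ordered by the WT mean. Points are libraries, blue for WT and red for LSD1 KO, with the replicate number as the symbol. HES4 and JAG2 stand above the others, the receptors, JAG1 and HES1 overlap, and DLL1, DLL4 and HEY1 are lowest in both groups.

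The difference between replicate 2 and the other libraries was larger for most of these genes than the difference between genotypes. Replicate 2 was the highest library of both groups for 5 of the 10 genes, DLL1, DLL4, HES1, HES4 and HEY1, where this held for 25.1% of all genes tested. It was the lowest of both groups for NOTCH1 and NOTCH2, 2 of the 10, where this held for 26.0% of all genes. All 3 target genes were thus highest and 2 of the 3 receptors lowest in replicate 2. For HES1, replicate 2 exceeded the mean of replicates 1 and 3 by 1.06 on the log2 scale in WT and by 0.83 in LSD1 KO cells, and for HES4 by 1.32 and 0.84. For NOTCH2 the corresponding log2 differences were -1.22 in WT and -0.79 in LSD1 KO cells. For NOTCH3, JAG1 and JAG2, replicate 2 was neither the highest nor the lowest library in both groups.

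The rest of the pathway was described from 11 lists with 79 genes, of which 68 were tested. Without the block 0 of the 68 were called and ID3 and CDKN1A had an unadjusted p under 0.05 (2.94%), and with the block 0 were called and 11 had one (16.2%), 6 higher and 5 lower in LSD1 KO cells. Over all genes tested these shares were 3.12% and 13.4%. The groups did not overlap for 7 of the 68 (10.3%), against 7.74% of all genes tested. The median log2 fold change of the 68 was 0.04 without the block.

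In the nucleus, RBPJ, the DNA-binding protein of the pathway, had 144.1, 113.1 and 144.7 CPM in WT and 153.9, 197.9 and 172.4 CPM in LSD1 KO libraries, which did not overlap. Its log2 fold change was 0.38 (SE 0.18, edgeR q value 0.9995) without the block and 0.38 (SE 0.14, q value 0.275) with it, and the other 7 genes of the activation complex ranged from -0.22 to 0.23 without the block. Of 13 corepressor genes 12 were tested, 10 had a log2 fold change above 0 without the block, and the smallest p was that of CTBP2, with -0.19 (SE 0.15, edgeR q value 0.9995). ITCH, an E3 ubiquitin ligase that limits NOTCH protein, had 94.2, 80.1 and 98.5 CPM in WT and 116.5, 99.6 and 135.2 CPM in LSD1 KO libraries, with a log2 fold change of 0.36 (SE 0.09, edgeR q value 0.130) with the block. DESeq2 with the block called ITCH (q value 0.0416).

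At the membrane, the 9 genes of receptor cleavage had log2 fold changes between -0.26 and 0.21 without the block, the lowest being that of APH1A, a γ-secretase subunit, which was -0.27 with the block (SE 0.10, edgeR q value 0.311). MFNG, a fringe glycosyltransferase that modifies NOTCH receptors, had the largest difference of 5 glycosylation genes, 0.57 with the block (SE 0.22, edgeR q value 0.308). MIB1, which ubiquitinates ligands so that they can be taken up, had 0.18 (SE 0.11, edgeR q value 0.538) with the block. NOTCH4, the remaining receptor, had between 0.492 and 0.604 CPM in WT and between 0.215 and 0.479 CPM in LSD1 KO libraries, with a log2 fold change of -0.73 (SE 0.50, edgeR q value 0.9995). DLL3 had at most 2 counts in any library.

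Among other targets, ID3, an inhibitor of helix-loop-helix factors, had 28.5, 85.1 and 49.5 CPM in WT and 25.9, 32.0 and 29.4 CPM in LSD1 KO libraries. Its log2 fold change was -0.90 (SE 0.35, edgeR q value 0.9995) without the block and -0.78 (SE 0.21, q value 0.164) with it, and DESeq2 with the block called ID3 (q value 0.00469). CDKN1A, a cell cycle inhibitor named after its values were seen, had 211.4, 241.1 and 213.2 CPM in WT and 273.2, 293.5 and 302.8 CPM in LSD1 KO libraries, with a log2 fold change of 0.39 (SE 0.09, edgeR q value 0.114) with the block. DESeq2 with the block called CDKN1A too (q value 0.00807). Of the other 7 HES and HEY genes 4 were tested, HES5 had 0 counts in every library, and HES7 had a log2 fold change of 1.16 (SE 0.87, edgeR q value 0.9995). HES7 rested on 4, 28 and 14 counts in the WT libraries and on 15, 76 and 11 in the LSD1 KO libraries. Only LSD1 KO replicate 2 lay above its WT range. Of the 6 genes that HES1 represses in the intestine, GFI1 and ATOH1 were tested. GFI1 had a log2 fold change of 0.13 (SE 0.22, edgeR q value 0.9995), ATOH1 was between 0.151 and 0.847 CPM over the 6 libraries, and NEUROG3 had 0 counts throughout.

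**Figure D5:**
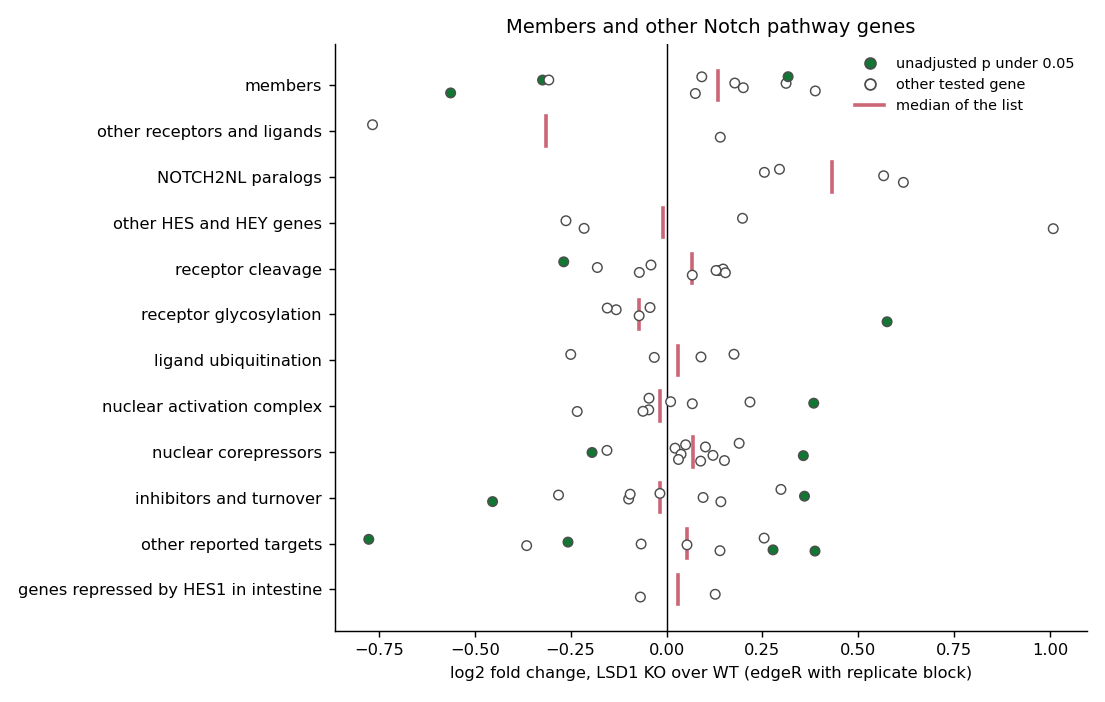
Log2 fold change of LSD1 KO over WT with the replicate block (horizontal axis) for the 10 Notch genes and for the tested genes of 11 other pathway lists. Filled points have an unadjusted p under 0.05 and red ticks mark the median of each list. No point on this plot had a q value under 0.1.

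The genes whose pattern over the 6 libraries was most like each Notch gene were read from Pearson's r of log2 CPM (pseudocount 0.1 CPM), as a description of these libraries, which differ chiefly by replicate number. For the receptors these were SLC13A5 for NOTCH1 (r = 1.00), TNRC6B for NOTCH2 (r = 0.999) and ENSG00000285238 for NOTCH3 (r = 0.998). The ligands were matched by SUN2 for JAG1 (r = 0.997), BICDL2 for JAG2 (r = 0.994), EPHB6 for DLL1 (r = 0.994) and CCDC127 for DLL4 (r = 0.997). SLC25A6 was closest to HES1 (r = 0.999), MAZ to HES4 (r = 0.998) and PLA2G15 to HEY1 (r = 0.9995). Between 35 genes for JAG2 and 546 genes for NOTCH2 reached an r of 0.95 or more, so a single closest gene marks 1 of many.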

How the data were processed

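Libraries were prepared from polyadenylated RNA and sequenced on an Illumina instrument. Per the labels and the methods, the authors used FastQC for read quality, Trimmomatic 0.39 for trimming and Salmon 1.4.0 for quantification against GENCODE on GRCh38, and deposited estimated counts (expected counts) per gene as whole numbers, not normalized. Ensembl identifiers gave a symbol for 58395 of 60240 genes.

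The comparison of LSD1 KO with WT used edgeR 4.0.16 in R 4.3.3 (TMM, filterByExpr by group, quasi-likelihood test, Benjamini-Hochberg adjustment over all genes), with calls made below a q value of 0.1. The SE of a log2 fold change was derived from it and its F statistic. CPM used TMM library sizes. Same-numbered WT and LSD1 KO libraries deviated together from their group means, with Pearson's r of 0.56, 0.56 and 0.41 over 17672 genes, so the data, not the labels, pair them, and a second fit held the number as a block. DESeq2 1.42.0, other size factors and filters, and fits without each library or pair were alternatives. Single values were compared by exact permutation in scipy 1.17.1. Steps were tested on simulated data.

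The 10 genes and all lists were chosen with earlier results of these data known. Named from the lists were genes with a q value under 0.1 in either fit and the smallest p per list, and from all genes the closest by r. KDM1A was named as the targeted gene, and the NOTCH2NL genes for shared sequences. Other genes of the lists, markers and genes with few or 0 counts among them, were named with their values known. Positions and promoters came from RefSeq (GRCh38.p14), transcript lengths and shared sequences from GENCODE v44lift37. No promoter entry was found for DLL1 and HEY1.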

Additional observations from a re-analysis of the deposited data

How the results depend on the processing

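Alternatives with the block and another filter, size factor, threshold or legacy setting, and legacy = FALSE without it, were chosen after seeing the data. The default of edgeR 4.0.16 is legacy = TRUE, so that alternative repeats the reported fit and was not run again. Without the block, 0 Notch genes and 0 other pathway genes were called in any alternative, leaving out single libraries included (0 to 0). The non-overlapping gene was JAG2 under RLE and upper-quartile factors too. Over all genes tested the count was 1 of 17672 as reported, 114 of 33857 with every gene with counts kept, 95 of 25298 with DESeq2 and 2 of 17672 with legacy = FALSE. It was 22 of 18043 without replicate 2 of both groups. When 1 library was left out it was between 1 and 26, with 26 of 18278 without LSD1 KO replicate 2.

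The replicate block gave 282 of 17672 genes tested, 0 Notch genes and 0 other pathway genes, and 143 genes at a q value under 0.05. With it, HES4 was the 1 Notch gene called with legacy = FALSE (367 of 17672 genes, and 1 other pathway gene), RLE factors (295 of 17672) and upper-quartile factors (340 of 17672, and 1). The same held with at least 10 counts in every library (374 of 15404, and 1) and with DESeq2 (597 of 14165, and 4, ITCH, CDKN1A and ID3 among them). In these fits the q value of HES4 was between 0.00141 and 0.0939. With every gene with counts kept, the block called 1285 of 33857 genes tested, 4 Notch genes (NOTCH3, JAG1, JAG2 and HES4) and 6 others. The median of the total degrees of freedom, residual and prior together, was 67710 in that fit against 8.21 as reported. Leaving out pair 1, 2 or 3 gave 428, 1055 and 198 genes, which were 2.40%, 5.85% and 1.12% of the genes tested. Among them were 1, 2 (DLL1 and HES4) and 0 Notch genes, and 1 (ID3), 5 (ID3, ITCH and CDKN1A among them) and 0 others. The cause of these shifts was not tested.

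The sign of the log2 fold change did not turn in the 23 alternatives for HES4 (range -1.01 to -0.10), JAG2 (-0.48 to -0.16), JAG1 (0.14 to 0.51) and NOTCH3 (0.011 to 0.66), but that of NOTCH3 was near 0 without replicate 2 of both groups (0.011) and with the block without pair 2 (0.018). With 1 library left out, the log2 fold change crossed 0 for NOTCH1 (range -0.13 to 0.21), NOTCH2 (-0.19 to 0.33), DLL1 (-0.70 to 0.039), DLL4 (-0.28 to 0.48), HES1 (-0.19 to 0.55) and HEY1 (-0.90 to 1.45). DLL4 also turned with the block without pair 3 (-0.054), and HEY1 with the block without pair 2 (-0.27) and without replicate 2 of both groups (-0.24). HEY1, with 9 counts in 1 library, left the table at a minimum of 10 counts.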

Other observations

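NRARP, a feedback inhibitor of the pathway and itself a Notch target, and HES6, a further member of the HES family, are given here as values, chosen after these had been seen. NRARP had 31.7, 63.6 and 41.7 CPM in WT and 29.2, 31.3 and 35.97 CPM in LSD1 KO libraries. Its log2 fold change was -0.51 (SE 0.25, edgeR q value 0.9995) without the block and -0.45 (SE 0.17, edgeR q value 0.301) with it. HES6 had 48.4, 98.7 and 58.5 CPM in WT and 45.0, 91.0 and 43.5 CPM in LSD1 KO libraries, with a log2 fold change of -0.20 (SE 0.35, edgeR q value 0.9995) without the block. Both genes were lower in LSD1 KO cells in 3 of 3 numbered pairs, and 36.3% of all genes tested had the same direction in every pair. HEYL, of the HEY family and also named after its values were seen, went the other way and was higher in 3 of 3 pairs. It had 16.9, 14.7 and 20.0 CPM in WT and 20.3, 16.8 and 21.9 CPM in LSD1 KO libraries. With the block its log2 fold change was 0.20 (SE 0.11, edgeR q value 0.492).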
